A study of Tupaia belangeri with 6 samples.

Results

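The disease-associated microglia genes described here are 8 genes named by symbol with earlier results of these data known: GPNMB, LAPTM5, TREM2, TYROBP, SPP1, LPL, CST7 and ITGAX. They were looked up by exact symbol among the 83605 features of the hippocampal count matrices, where 6 of the 8 symbols were found, and 5 members carried at least 1 transcript. The matrices came from single-nucleus RNA sequencing of the hippocampus of tree shrews (TSs, Tupaia belangeri, small mammals related to primates), with 1 library from each of 3 control TSs (labelled Normal) and 3 TSs with Alzheimer's-like pathology (ALP, labelled AD). ALP arose in naturally aged animals without a transgene or drug, and ALP TSs were picked from a cohort by their slow passage of a pipeline maze, while the controls were of like age and passed it faster. Neither age nor sex is labelled for a single library, and nothing in the labels sets the groups apart beyond Normal and AD. Values are counts of unique molecular identifiers (UMIs), 1 for each captured RNA molecule.

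Microglia are the resident immune cells of the brain. Around amyloid plaques and dying cells in mice they can switch from a resting programme, marked by P2RY12 and CX3CR1, to a disease-associated programme of phagocytosis, lysosomal digestion and lipid handling. TREM2 is a lipid-sensing receptor at the surface of microglia that signals through its adaptor TYROBP, and this signal is needed for the full programme in mice. GPNMB is a glycoprotein of lysosomes and the cell surface, LAPTM5 a membrane protein of lysosomes in blood-derived cells, and CST7 an inhibitor of lysosomal cathepsins. LPL splits triglycerides of lipoproteins, SPP1 (osteopontin) is a secreted matrix protein, and ITGAX (CD11c) is an integrin subunit that pairs with ITGB2.

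No feature carried the symbol TREM2 or ITGAX, so that the receptor at the head of the pathway and the integrin were not analysed here. A RefSeq table of another assembly of the species (TupChi_1.0) lists all 8 symbols, and no member sequence was at hand for printing. Related symbols were present: ITGAM, the integrin subunit CD11b, held 1238 UMIs in the kept nuclei, of which 78.8% were in Micro-like nuclei, and TREML1 held 439, of which 59.2% were there. ITGAM was among the 22 microglia markers used to name that class, so that its share is in part built in. Of other relatives, Micro-like nuclei held 9.43% of the UMIs of TREML2, 13.8% of ITGAD, 18.8% of ITGAL and 0 of the 6 UMIs of ITGB2, the partner of ITGAX. These genes were named after their values were seen. The feature of CST7 held 0 UMIs in all 37603 barcodes. Among the 1410 Micro-like nuclei, a count of 0 allows a share of nuclei with a UMI of up to 0.213% (counting error only). The other members held 1140 (GPNMB), 819 (TYROBP), 908 (SPP1), 314 (LAPTM5) and 172 (LPL) UMIs in the kept nuclei.

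Of the 37603 barcodes, 28233 nuclei were kept, 14387 control and 13846 ALP, with 1614 to 7022 per library and a median of 1503 to 2188 UMIs per nucleus in each. Pairs of libraries shared at most 18 barcodes. Clusters were built without the members, and 1 cluster of 1410 nuclei carried 18 of the 22 microglia markers (CSF1R, P2RY12, CX3CR1 and others, while TMEM119 was at 0) and is called Micro-like. It held 490, 36 and 233 nuclei in Control 1, 2 and 3, and 173, 298 and 180 in ALP 1, 2 and 3, so that values of Control 2 rest on few nuclei. Another cluster with 18 microglia markers stayed unnamed because 19% of its 205 nuclei were marked as doublets, against 3.19% in the Micro-like cluster. It made up 0.296% to 0.698% of the nuclei of control libraries and 0.840% to 0.997% of those of ALP libraries. Marked doublets were 46.9%, 0% and 23.5% of its nuclei in Control 1, 2 and 3, and 3.03%, 15.4% and 6.82% in ALP 1, 2 and 3. UMIs of the Y-linked genes KDM5D, DDX3Y and USP9Y numbered 345 to 1009 in Control 1, Control 2 and ALP 2, and 0 to 9 in the other 3 libraries.

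The first comparison asked in which cell types the members were found. TYROBP, LAPTM5 and GPNMB were highest in Micro-like nuclei, SPP1 was highest in Oligo-like nuclei (oligodendrocytes), and LPL was highest in Endo-like nuclei (endothelial cells) among the 8 classes ranked, which leave out the small Mural-like and Ependymal-like classes, the Excitatory-like class and unnamed clusters. Levels are in CPM, the UMIs of a gene scaled to 1 fixed total for all nuclei of a class in a library, and they were compared between classes within a gene. The difference between Micro-like nuclei and the highest of the 7 other classes, in log2(CPM + 1), was taken within each library and tested by a two-sided exact sign-flip permutation over the 6 libraries, with Benjamini-Hochberg adjustment over the 5 members. The smallest p that 6 libraries allow is 0.0312. The other class was picked by its mean in these same 6 libraries. For SPP1 and LPL, where that class was above Micro-like nuclei, this choice favours a difference.

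LAPTM5 averaged 148 ± 89.2 CPM in Micro-like nuclei (SD, n = 6 libraries), and no other class averaged more than 5.90 ± 7.02 CPM (Endo-like). Micro-like nuclei held 74.8% of its UMIs but 2.86% of all UMIs. They exceeded Endo-like nuclei in 6 of 6 libraries, by 5.2 ± 2.02 on the log2 scale (exact p = 0.0312, adjusted p = 0.0391). Among the named classes LAPTM5 was low outside Micro-like nuclei, with 2 UMIs among the 2863 Gran-like nuclei (dentate granule neurons) and 0 among the Ependymal-like nuclei. The unnamed cluster with microglia markers held 28 UMIs, at 39.3 CPM.

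GPNMB averaged 515 ± 513 CPM in Micro-like nuclei, which held 78.0% of its UMIs. Endo-like nuclei came next on average with 24.9 ± 57.5 CPM, but 10 of their 11 UMIs came from 1 nucleus of Control 2, and the 6 other ranked classes averaged 0.759 to 2.61 CPM. Micro-like nuclei were above Endo-like nuclei in 5 of 6 libraries, by 6.64 ± 4.06 on the log2 scale (exact p = 0.0625, adjusted p = 0.0625). Control 2 was the exception, with 111 CPM in Micro-like and 142 CPM in Endo-like nuclei. The unnamed cluster with microglia markers held 123 UMIs, at 173 CPM, and GPNMB was among its leading genes.

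TYROBP averaged 192 ± 73.1 CPM in Micro-like nuclei and was less confined to them, since they held 39.6% of its UMIs. Endo-like nuclei followed with 40.1 ± 33.0 CPM and lay below Micro-like nuclei in 6 of 6 libraries, by 2.61 ± 0.94 on the log2 scale (exact p = 0.0312, adjusted p = 0.0391). Astro-like (astrocytes), OPC-like (oligodendrocyte precursors), Gran-like, Pyra-like (pyramidal neurons), InN-like (interneurons) and Oligo-like nuclei had mean levels of 4.34 to 7.0 CPM, and neighbours among these 6 classes lay closer together than their SDs of 2.28 to 4.43 CPM. Outside the ranked classes, Ependymal-like nuclei averaged 37.9 ± 35.2 CPM, from 12 UMIs. Pooled levels were higher in 3 clusters there: 106 CPM from 10 UMIs in 79 Mural-like nuclei led by ABCC9, EBF1 and RGS5. Of the 12 TYROBP UMIs of all Mural-like nuclei, 10 came from 2 nuclei of Control 1 and 2 from 2 nuclei of ALP 3. An unnamed cluster of 387 nuclei led by haemoglobin genes had 101 CPM from 50 UMIs, and the unnamed cluster with microglia markers 74.3 CPM from 53 UMIs.

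SPP1 had another order. Oligo-like nuclei averaged 46.7 ± 26.0 CPM and held 56.4% of its UMIs, Endo-like nuclei averaged 26.0 ± 19.1 CPM, and Micro-like nuclei averaged 10.8 ± 8.49 CPM with 18 UMIs in all. Micro-like nuclei were below Oligo-like nuclei in 6 of 6 libraries, by a mean log2 difference of -2.30 ± 1.63 (exact p = 0.0312, adjusted p = 0.0391). Oligo-like and Endo-like nuclei, the neighbours at the top, did not differ beyond their spread (log2 difference 1.36 ± 2.24, exact p = 0.0938, adjusted p = 0.0938). Below them, OPC-like nuclei averaged 10.5 ± 6.30 CPM, and Astro-like, Pyra-like, Gran-like and InN-like nuclei averaged 6.34 to 7.14 CPM. Outside the ranked classes, an unnamed cluster of 595 nuclei with MT-ND1li1 among its leading genes had 47.1 CPM from 27 UMIs. An unnamed cluster of 254 nuclei led by TMEM232 and CFAP299 had 37.9 CPM from 13 UMIs, and that led by haemoglobin genes 34.5 CPM from 17. The 79 Mural-like nuclei led by ABCC9 had 31.7 CPM from 3 UMIs. Pooled likewise, clusters of Oligo-like nuclei had 24.2 to 73.2 CPM.

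LPL, the lipase, averaged 70.2 ± 29.3 CPM in Endo-like nuclei, which held 60 of its 172 UMIs. Mural-like nuclei, not among the 8 classes ranked, averaged 63.4 ± 58.4 CPM from 16 UMIs and held 2 unlike clusters. The 79 nuclei led by ABCC9, EBF1 and RGS5, genes known from pericytes, had 138 CPM from 13 UMIs, above the 78.8 CPM of pooled Endo-like nuclei, and the 106 nuclei with COL1A1, COL1A2 and DCN, genes known from fibroblasts, had 12.8 CPM from 3 UMIs. Micro-like nuclei averaged 8.62 ± 9.07 CPM from 16 UMIs, below Endo-like nuclei in 6 of 6 libraries (log2 difference -3.44 ± 1.39, exact p = 0.0312, adjusted p = 0.0391), and Astro-like nuclei averaged 6.93 ± 3.17 CPM. Micro-like and Astro-like nuclei, neighbours in this order, lay within their spread. Counting was not stated to use strand, so that LPL and its antisense feature LPL-AS-1 (30 UMIs in the kept nuclei) cannot be told apart with certainty, while the antisense feature of GPNMB held 0 UMIs.

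**Figure D1:**
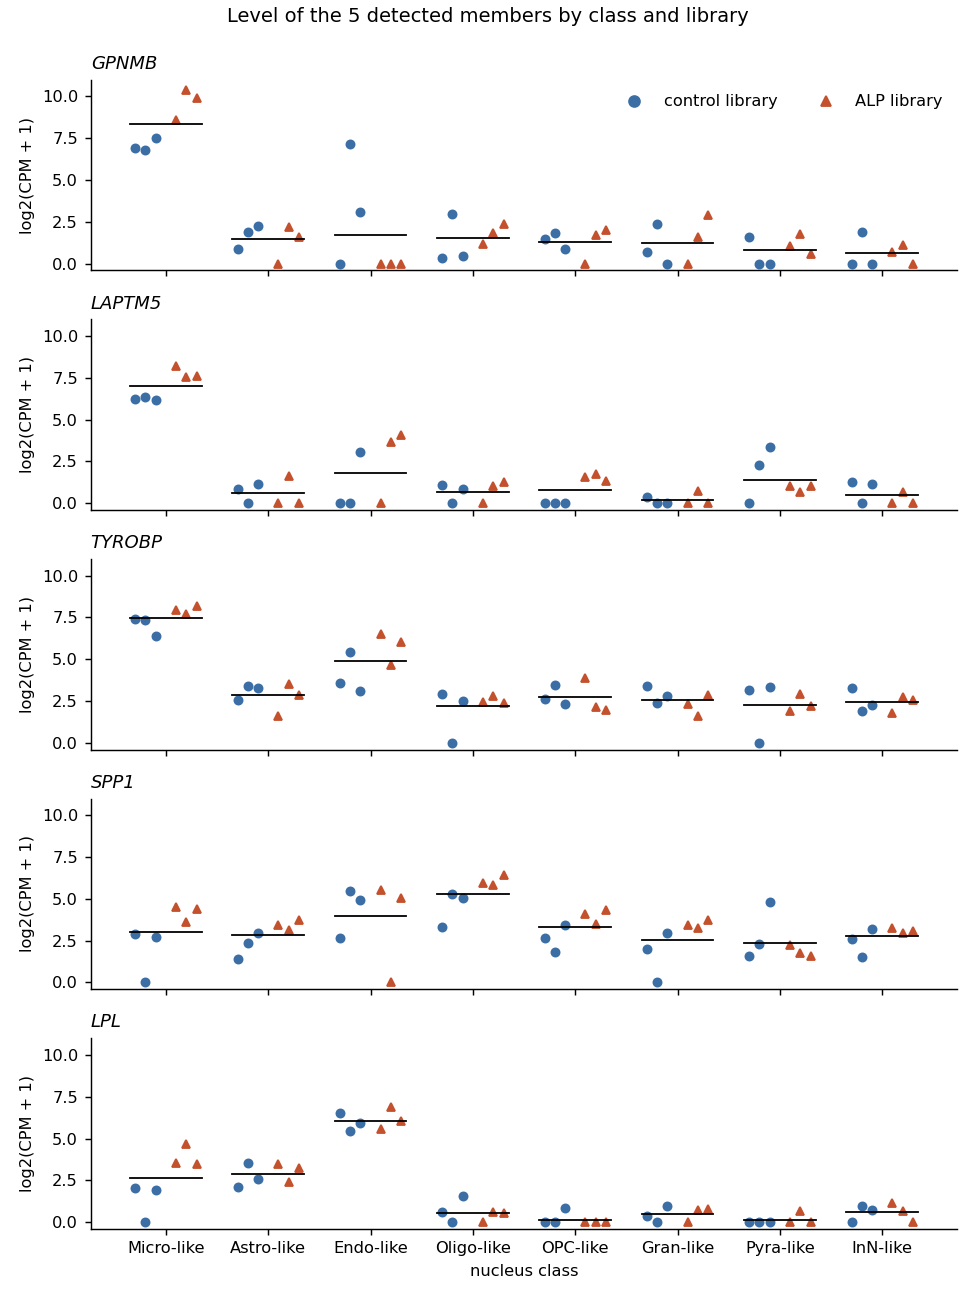
Level of GPNMB, LAPTM5, TYROBP, SPP1 and LPL in 8 classes of nuclei as log2(CPM + 1), with 1 blue circle per control library, 1 orange triangle per ALP library and a black line at the mean of the 6 libraries. GPNMB, LAPTM5 and TYROBP peak in Micro-like nuclei, SPP1 in Oligo-like nuclei and LPL in Endo-like nuclei.

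The second comparison asked whether the members differed between ALP and control TSs in Micro-like nuclei. GPNMB and LAPTM5 rose in ALP, TYROBP was higher in all 3 ALP libraries without passing the test, and SPP1 and LPL had too few UMIs to pass the filter on low counts. UMIs were summed per library and fitted with the quasi-likelihood test of edgeR after TMM scaling. Low features were filtered at a count of 10, p-values were adjusted over the 5066 features left, and a call needed an adjusted p below 0.05 and an absolute log2 fold change above 0.25. Of the 3 members tested, 2 were called, both higher in ALP, where 0.415% of all features tested were called higher and 0.691% in either direction. As the members were chosen with earlier results of these data known, this count is a description and no test of the set.

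GPNMB stood at 118, 111 and 181 CPM in Control 1, 2 and 3, and at 381, 1327 and 972 CPM in ALP 1, 2 and 3. The lowest ALP library was above the highest control library, and the spread among ALP libraries was wide (137 ± 38.5 against 893 ± 478 CPM, mean ± SD, n = 3 each). GPNMB was higher by 2.67 on the log2 scale in ALP (SE 0.369, 95% interval 1.89 to 3.45, edgeR adjusted p = 0.00643), the smallest p of the 5066 features. Leaving out any 1 library kept the call, with log2 fold changes of 2.30 to 3.04, but it was lost when the upper limit on genes per nucleus was lifted (2.48, adjusted p = 0.0592), when nuclei were taken by UMIs of at least 3 microglia markers in place of clusters (1.84, adjusted p = 0.241) and when nuclei with a myelin gene UMI were left out (2.36, adjusted p = 0.0649). Without the upper limit the class was another set of nuclei, with many much deeper ones, and 15147 features were tested. In Control 2 it grew from 36 nuclei with 62931 UMIs to 183 with 3479023. In ALP 1 it grew from 173 nuclei with 186319 UMIs to 278 with 1421684. Between libraries with Y-linked UMIs GPNMB was at 118 and 111 against 1327 CPM, and between those without at 181 against 381 and 972 CPM.

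LAPTM5 was at 73.3, 79.5 and 70.7 CPM in the controls and at 290, 183 and 194 CPM in ALP 1, 2 and 3. The controls lay close together, the groups did not overlap, and ALP 1 was highest, unlike for GPNMB, where it was the lowest of the ALP libraries. LAPTM5 was higher by 1.61 on the log2 scale (SE 0.284, 95% interval 1.01 to 2.21, edgeR adjusted p = 0.0116, position 11 of 5066 by p). The call was lost without Control 1 (adjusted p = 0.0555), Control 3 (0.102) or ALP 1 (0.0909), with log2 fold changes of 1.39 to 1.62. It was also lost without the upper limit on genes (2.41, adjusted p = 0.0592) and with nuclei taken by marker UMIs (1.45, adjusted p = 0.0968).

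TYROBP was at 171, 159 and 82.1 CPM in the controls and at 242, 205 and 294 CPM in ALP 1, 2 and 3. All ALP libraries were above all controls, but the gap between ALP 2 and Control 1 was smaller than the spread within either group. The difference was 0.90 on the log2 scale (SE 0.279, 95% interval 0.308 to 1.48, edgeR adjusted p = 0.174), so that the adaptor of TREM2 did not pass the test across all features.

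SPP1 held 4, 0 and 2 UMIs in the Micro-like nuclei of Control 1, 2 and 3 and 4 in each ALP library, which gave 6.38, 0 and 5.66 CPM against 21.5, 11.1 and 19.9 CPM. LPL held 2, 0 and 1 against 2, 9 and 2 UMIs, which gave 3.19, 0 and 2.83 against 10.7, 25.0 and 9.97 CPM. Both were read with an exact permutation test of log2(CPM + 1) over the 20 arrangements of the libraries (differences 2.29 and 2.57, exact p = 0.100 each, the smallest that 3 against 3 libraries allow), and both failed the edgeR filter. Fitted without that filter they were at 1.49 (SE 0.866, edgeR adjusted p = 0.660) and 2.39 (SE 0.970, adjusted p = 0.563), and SPP1, which passed the filter once the upper limit on genes per nucleus was lifted, was then at 0.54 (SE 0.396, adjusted p = 0.440). The ALP libraries were above the controls for all 5 members with UMIs, which 6.02% of features with at least 10 UMIs in Micro-like nuclei also showed. For SPP1 and LPL that order rests on 18 and 16 UMIs.

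**Figure D2:**
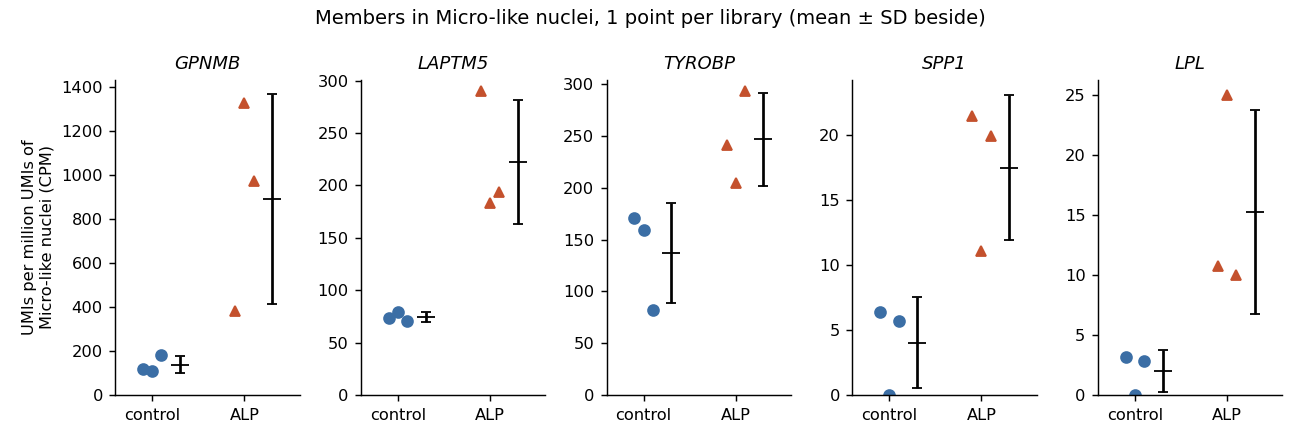
Level of each detected member in Micro-like nuclei in CPM (linear axes that start at 0, of different range per gene), with 1 point per library and the mean ± SD of 3 libraries beside each group. In each panel the 3 ALP libraries lie above the 3 control libraries, and for SPP1 and LPL the values rest on 18 and 16 UMIs in all.

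Depth and the markers of other cells were measured in the same nuclei. Micro-like nuclei had a median of 1067 to 1354 UMIs in control and 811 to 970 in ALP libraries. The 22 microglia markers summed to 4275 to 6196 CPM in control and 5850 to 6845 CPM in ALP. Of the 6 perivascular macrophage markers in the annotation, 4 had a UMI, CD163 and SIGLEC1 were at 0, and their sum was 79.5 to 214 CPM in control and 89.7 to 167 CPM in ALP. GPNMB and LAPTM5 stayed called when nuclei with a UMI of any of them were left out. Of 7 monocyte and neutrophil markers that are not also microglia markers, 4 had a UMI, S100A8, S100A9 and FCN1 were at 0, and their sum was 0 to 31.9 CPM in control against 32.2 to 44.9 CPM in ALP. These 4 included VCAN, also an OPC marker here, and LYZ, also listed for the disease-associated programme, so that the sum is not particular to monocytes. The 8 T cell markers (7 with a UMI, THEMIS at 0) summed to 224 to 350 against 319 to 553 CPM. Of the 8 oligodendrocyte markers 6 had a UMI, MBP and MOBP were at 0, and their sum was higher in control (1783 to 2020 CPM) than in ALP (1579 to 1625 CPM). The interneuron markers (9 of 11 with a UMI, GAD1 and GAD2 at 0) were also higher in control (87.7 to 143 CPM) than in ALP (72.2 to 85.9 CPM). The part of the monocyte, T cell, oligodendrocyte and interneuron transcripts in the result was not tested.

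**Figure D3:**
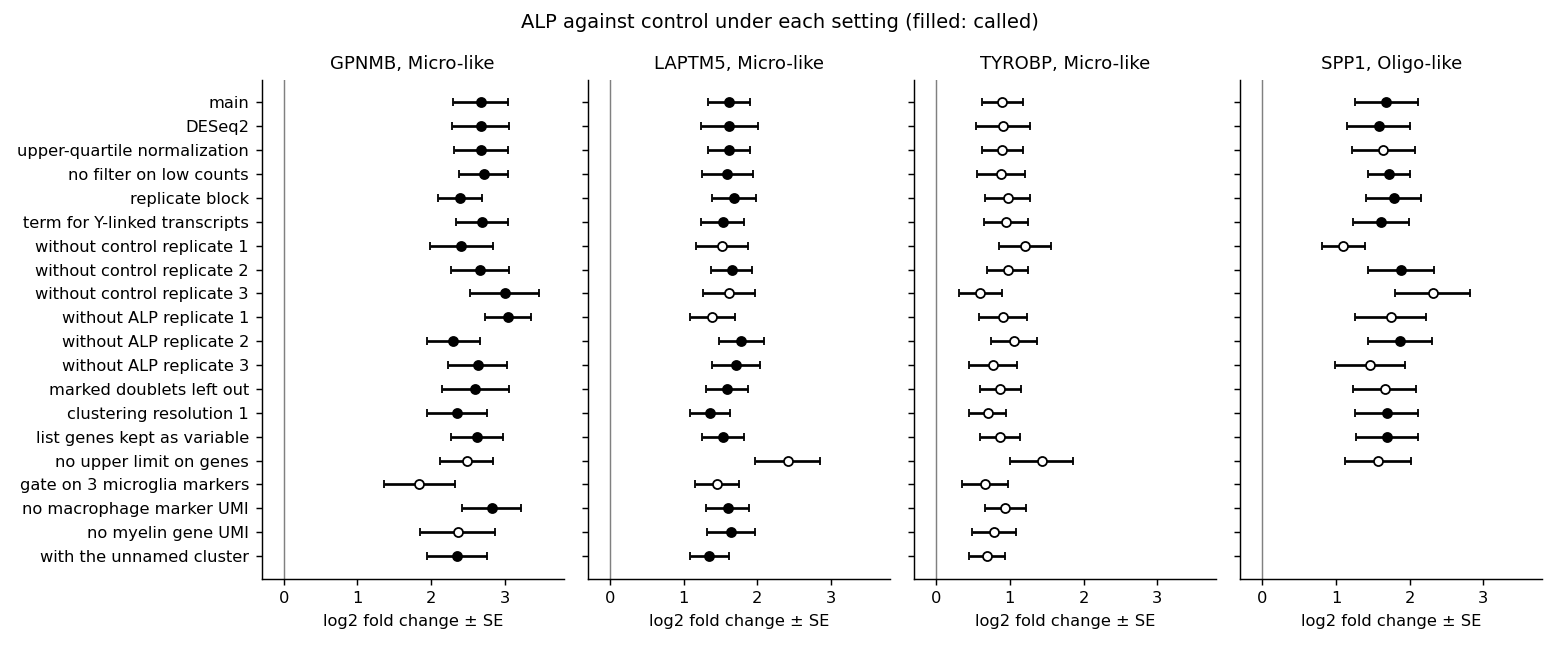
Log2 fold change of ALP against control with its standard error (x axis) under each setting (y axis) for GPNMB, LAPTM5 and TYROBP in Micro-like nuclei and SPP1 in Oligo-like nuclei. Filled points passed an adjusted p under 0.05: GPNMB is filled in each fit that leaves out 1 library, LAPTM5 and SPP1 in 3 and 2 of them, and TYROBP in none.

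In single nuclei, GPNMB was found in a minority of Micro-like nuclei, and most of its UMIs lay in those with at least 5 each. A UMI of GPNMB was found in 127 of 1410 nuclei (9.01%, exact 95% interval 7.56% to 10.6%, counting error only). Its share was 2.65%, 8.33% and 6.44% in Control 1, 2 and 3, and 8.67%, 18.1% and 15% in ALP 1, 2 and 3. The groups did not overlap, but Control 2, with 3 of 36 nuclei, and Control 3 each lay within the counting interval of ALP 1, and ALP 1 within theirs. The 60 nuclei with at least 5 UMIs, 4.26% of the class, held 83.4% of its GPNMB UMIs.

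Such nuclei were present in both groups. Nuclei with at least 5 UMIs numbered 7 of 490, 0 of 36 and 6 of 233 in Control 1, 2 and 3, and 4 of 173, 29 of 298 and 14 of 180 in ALP 1, 2 and 3. Control 3 (2.58%) was thus above ALP 1 (2.31%), and both lay below ALP 2 (9.73%) and ALP 3 (7.78%). The highest nucleus held 15 UMIs in control and 43 in ALP. Nuclei with a UMI held 5.69, 2.33 and 4.27 on average in Control 1, 2 and 3. In ALP 1, 2 and 3 they held 4.73, 8.85 and 7.22, so that Control 1 was above ALP 1 and the groups overlapped. Doublets were marked in 6.45% of control nuclei with and 4.53% of those without a GPNMB UMI, and in 1.04% and 1.62% in ALP. Nuclei with a UMI were deeper in both groups, with a median of 1342 against 1143 UMIs in control and 1054 against 885 in ALP.

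**Figure D4:**
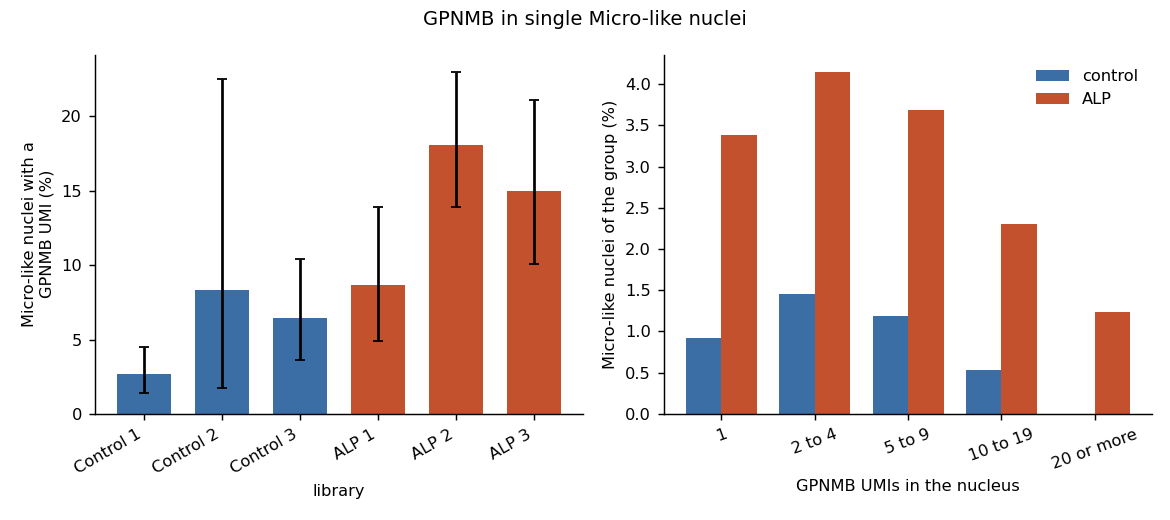
Left, share of Micro-like nuclei with a UMI of GPNMB in each library (%), with exact 95% binomial intervals; right, share of the Micro-like nuclei of each group (%) by the number of GPNMB UMIs in the nucleus. The share is 2.65% to 8.33% in control and 8.67% to 18.1% in ALP, and nuclei with 20 or more UMIs are found in ALP libraries alone (8 nuclei).

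To compare detection at equal depth, nuclei with at least 1000 UMIs were thinned to 1000, and the expected share with a UMI was computed. This left 287 of 490, 30 of 36 and 188 of 233 Micro-like nuclei in Control 1, 2 and 3. In ALP 1, 2 and 3 it left a smaller part, 52 of 173, 134 of 298 and 56 of 180. Nuclei with a GPNMB UMI were deeper in both groups, so that the cut may favour them more in ALP. Its part in the differences was not tested. For GPNMB the thinned share was 2.87%, 7.47% and 6.45% in the controls and 12.6%, 21.1% and 25.5% in ALP 1, 2 and 3 (difference 14.1 percentage points). For LAPTM5 it was 6.51% ± 1.31 in control and 15.8% ± 3.59 in ALP, and for TYROBP 13.7% ± 3.53 and 19.3% ± 2.01 (SD, n = 3 each). Without thinning, LAPTM5 was found in 8.98% to 11.1% of control and 19.4% to 27.2% of ALP nuclei, and TYROBP in 11.6% to 19.4% and 21.4% to 28.9%. In Gran-like nuclei, neurons taken as the measure of free RNA, the thinned shares were at most 0.463% (GPNMB), 0.0638% (LAPTM5) and 1.03% (TYROBP) in any library. Gran-like nuclei were deeper than Micro-like nuclei, with 3311006 UMIs in 1024 nuclei against 627373 in 490 in Control 1. They may thus understate free RNA in shallower nuclei, which was not tested. The unnamed cluster led by haemoglobin genes had pooled levels of 16.2 (GPNMB), 4.05 (LAPTM5) and 101 CPM (TYROBP). The unnamed cluster of 595 nuclei with MT-ND1li1 among its leading genes had 1.74, 3.49 and 26.2 CPM. Each of the 3 members was thus detected more often in every ALP library than in every control library, with an exact permutation p = 0.100, the smallest that 3 against 3 libraries allow. The share of all features with such an order at equal depth was not computed. In CPM it was shown by 6.02% of features with at least 10 UMIs in Micro-like nuclei. For SPP1 the thinned share was 0.421% ± 0.444 against 2.72% ± 1.84 and for LPL 0.210% ± 0.197 against 1.69% ± 1.66, where LPL overlapped, since ALP 1 had none among its 52 nuclei (exact permutation p = 0.100 and 0.400). For SPP1, Gran-like nuclei had 0.274%, 0% and 0.720% in Control 1, 2 and 3 beside 0.379%, 0% and 0.886% in Micro-like nuclei, and 0.906%, 0.807% and 1.24% in ALP 1, 2 and 3 beside 1.37%, 1.97% and 4.82%. The SPP1 share in Gran-like nuclei was thus also higher in every ALP library, and the LPL share there was at most 0.133%.

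Nuclei with and without GPNMB were compared for the other members within the 3 libraries that had at least 10 thinned nuclei of either kind, Control 3, ALP 2 and ALP 3. LAPTM5 was found in 12.9% ± 7.01 of nuclei with GPNMB and 12.9% ± 6.57 of those without, and TYROBP in 16.6% ± 11.1 and 16.6% ± 5.83 (SD, n = 3 libraries). Their differences had no common direction over the libraries (exact sign-flip p = 1.00 each). LPL was found in 5.31% ± 1.81 against 0.839% ± 1.45, higher in 3 of 3 libraries, with an exact p = 0.25, the smallest that 3 libraries allow, and an adjusted p = 0.500. SPP1 was lower in 3 of 3 libraries (1.32% ± 2.29 against 2.87% ± 2.11, exact p = 0.25, adjusted p = 0.500). Both orders rest on few UMIs. All Micro-like nuclei of Control 3, ALP 2 and ALP 3 held 1, 9 and 2 UMIs of LPL and 2, 4 and 4 of SPP1.

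Outside Micro-like nuclei, the members passed the edgeR filter for SPP1 in Oligo-like, Gran-like and InN-like nuclei, and SPP1 rose in ALP in Oligo-like nuclei. It held 9.07, 38.4 and 32.2 CPM in Control 1, 2 and 3 and 61.4, 54.9 and 84.2 CPM in ALP 1, 2 and 3. The groups did not overlap, as in 7.19% of features with at least 10 UMIs in this class, and Control 1 was far below the other controls. SPP1 was higher by 1.68 on the log2 scale (SE 0.427, 95% interval 0.742 to 2.61, edgeR adjusted p = 0.0487), in a class where 1.87% of 11633 features were called higher. The call lay at the threshold: it was lost without Control 1 (1.10, adjusted p = 0.0688), Control 3 (2.31, 0.0787), ALP 1 (1.74, 0.128) or ALP 3 (1.46, 0.212).

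Oligo-like nuclei fell into 5 clusters, which the groups filled unequally. Cluster 0 held 49.8% of control but 18.9% of ALP Oligo-like nuclei, and clusters 7 and 9, where SPP1 was highest (73.2 and 68.6 CPM), held 4.89% and 3.60% of control against 28.8% and 27.8% of ALP nuclei. These shares pool the libraries of a group. By library, cluster 7 held 82 of 2342, 25 of 179 and 90 of 1506 Oligo-like nuclei in Control 1, 2 and 3. In ALP 1, 2 and 3 it held 400 of 1254, 275 of 1430 and 605 of 1762. Cluster 9 held 67, 27 and 51 in the controls and 376, 338 and 524 in ALP, and cluster 0 held 1194, 67 and 745 against 199, 380 and 260. Within clusters 5, 9 and 10 the 3 ALP libraries were above the 3 controls (means of 60.6 against 20.1, 72.5 against 22.3 and 57.3 against 26.1 CPM), and in clusters 0 and 7 the groups overlapped (48.4 against 28.1 and 80.1 against 43.5 CPM). The control value of cluster 9 rests on 1, 0 and 4 UMIs, and in cluster 10 the highest control (33.1 CPM) and the lowest ALP library (34.9 CPM, from 3 UMIs) nearly met, with 1 UMI in Control 2. With the 5 clusters weighted equally, an alternative chosen after seeing the data, SPP1 was at 28.0 ± 14.0 CPM in control and 63.8 ± 12.6 CPM in ALP. The difference in log2(CPM + 1) was then 1.30 in place of 1.5 (exact permutation p = 0.100 each).

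**Figure D5:**
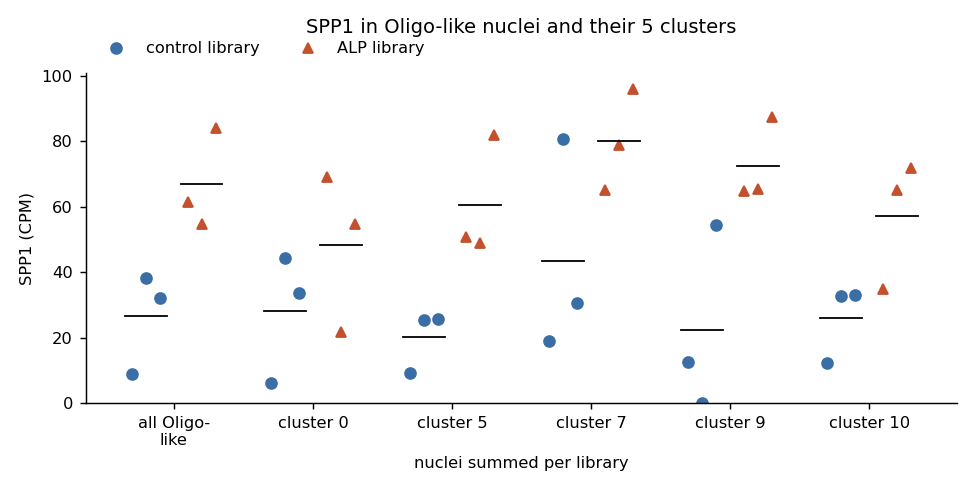
SPP1 in CPM in all Oligo-like nuclei and in each of their 5 clusters, with 1 blue circle per control library, 1 orange triangle per ALP library and black lines at the group means. In all Oligo-like nuclei and in clusters 5, 9 and 10 the ALP libraries lie above the controls, while in clusters 0 and 7 the groups overlap.

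SPP1 was low in the neurons, and there it did not pass the test where it was tested. In Pyra-like nuclei its mean was lower in ALP (11.1 ± 14.2 against 2.75 ± 0.891 CPM) and likewise in Excitatory-like nuclei (10.4 ± 7.03 against 2.98 ± 0.464 CPM), with overlapping groups in both. The Pyra-like control mean rests on Control 3, at 27.4 CPM from 3 UMIs in 47 nuclei. Control 1 and 2 were at 1.99 and 3.90 CPM, beside 3.75, 2.44 and 2.05 CPM in ALP 1, 2 and 3. Among Excitatory-like nuclei, Control 2 and 3 were at 14.5 and 14.4 CPM, and Control 1, at 2.28 CPM, was below every ALP library. Of the 1308 such nuclei of Control 3, 443 had at least 1000 UMIs. In Gran-like nuclei SPP1 was at 3.02, 0 and 6.93 CPM in the controls and 9.80, 8.76 and 12.1 CPM in ALP 1, 2 and 3 (1.42 on the log2 scale, SE 0.538, edgeR adjusted p = 0.198), where 0.163% of features were called higher. The control libraries had 10, 0 and 7 UMIs against 10, 13 and 17 in ALP, so that SPP1 passed the filter there through the ALP libraries, and it failed the filter without ALP 3. In InN-like nuclei the difference was 0.68 (SE 0.470, edgeR adjusted p = 0.474), where 0.286% were called higher. The ALP effect in Oligo-like nuclei exceeded that in Gran-like nuclei by 0.70 (95% interval -0.394 to 1.79, edgeR adjusted p = 0.826) and that in InN-like nuclei by 0.97 (-0.175 to 2.12, adjusted p = 0.652), in tests added after seeing the data that called 0.0338% and 0.119% of features, so that a difference between the classes was not shown. In the exact test of CPM, the ALP libraries were above the controls in Astro-like, OPC-like and Gran-like nuclei too, as were 5.12%, 5.90% and 5.85% of features with at least 10 UMIs there. The thinned shares of nuclei with SPP1 were 0.446% and 1.05% in control and ALP Astro-like nuclei and 0.555% and 1.52% in OPC-like nuclei, beside 0.331% and 0.984% in Gran-like nuclei, the measure of free RNA, whose part in these differences was not tested. In Oligo-like nuclei they were 2.54% and 6.34%. The groups' CPM overlapped in Endo-like, Pyra-like and InN-like nuclei, where 4.31%, 6.27% and 5.20% of features had all ALP libraries above.

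In Endo-like nuclei, its main site, no difference in LPL between the groups was shown. It was at 89.9, 42.7 and 59.4 CPM in the controls and at 45.9, 119 and 64.3 CPM in ALP 1, 2 and 3 (64 ± 24.0 against 76.5 ± 38.2 CPM, exact permutation p = 0.600). The order of the libraries was mixed, and each value rests on 2 to 33 UMIs. Over all kept nuclei LPL was lower in every ALP library than in every control library (3.33 ± 0.242 against 2.21 ± 0.762 CPM), as were 20.6% of features, and edgeR gave -0.36 on the log2 scale (SE 0.358, adjusted p = 0.578). The kept nuclei included 308 Endo-like nuclei in control and 115 in ALP, and in sums over all nuclei fewer cells of a type and less RNA per cell cannot be told apart.

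Sums over all kept nuclei also took in the other members. GPNMB was at 2.18 on the log2 scale (SE 0.498, edgeR adjusted p = 0.0718), LAPTM5 at 1.17 (SE 0.306, 0.0833), SPP1 at 1.17 (SE 0.392, 0.126) and TYROBP at 0.42 (SE 0.256, 0.348). In CPM, all ALP libraries were above all controls for GPNMB and LAPTM5, as were 4.74% of features with at least 10 UMIs. No feature of 22749 was called there by edgeR, with 5323 at an unadjusted p under 0.05, while DESeq2 called 1740, GPNMB, LAPTM5 and SPP1 among them (adjusted p = 5.04e-04, 0.0280 and 0.0456). A measure that needs no clusters, also chosen after seeing the data, set the UMIs of each member against 100 UMIs of the 22 microglia markers over all kept nuclei. LAPTM5 then had 1.06, 1.13 and 1.25 in the controls and 3.20, 2.41 and 2.17 in ALP 1, 2 and 3. GPNMB had 1.54, 5.03 and 2.29 against 4.61, 16.6 and 10.5, so that Control 2 was above ALP 1 (exact permutation p = 0.200), while LAPTM5 kept the groups apart (exact permutation p = 0.100). TYROBP had 4.33 ± 1.33 against 5.50 ± 0.824 and overlapped (exact permutation p = 0.200). Over all barcodes, LAPTM5 and TYROBP both kept the groups apart, TYROBP with 4.68, 4.36 and 3.41 against 6.05, 4.76 and 6.16 (exact permutation p = 0.100 each), and GPNMB overlapped. The share of all features that kept the groups apart by this ratio was not computed.

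Genes of the same programme were read from 6 lists, also chosen with earlier results of these data known. In the Micro-like fit, the median log2 fold change of all 5066 features was 0.0029. Of 150 listed genes, 78 were tested and 2 were called, both higher in ALP: CTSD, the lysosomal protease cathepsin D (1.61 on the log2 scale, SE 0.255, edgeR adjusted p = 0.00785), and P2RY12, a purinergic receptor of resting microglia (1.18, SE 0.256, adjusted p = 0.0439). Of 32 other genes of the disease-associated programme, 9 were tested, with a median of 0.75. Over all features tested, 11.5% had an unadjusted p under 0.05 in either direction. Besides CTSD, 6 of the 9 had an unadjusted p under 0.05 and a positive value without being called, and these were named after their values were seen: CADM1, B2M, CTSZ, CLEC7A, CD9 and LGALS3, at 0.59 to 1.27. In all, 7 of the 9 tested genes of this list had a positive value, and the rest did not. Of 20 genes of resting microglia, 14 were tested with a median of 0.15, and of 27 genes of TREM2 and TYROBP signalling 19 were tested and 0 called, with a median of -0.10. The smallest p in that list were those of BTK (1.12, adjusted p = 0.258) and PIK3R1 (0.55, adjusted p = 0.372), kinases downstream of immune receptors or their subunits.

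The lysosomal list, with regulators of the MiT/TFE factors, had 15 of 35 genes tested, 0 called and a median of 0.31, with LAPTM4A at 0.89 (adjusted p = 0.180) and LAMP2, a protein of the lysosomal membrane, at 1.15 (adjusted p = 0.284). Lipid handling had 12 of 25 tested, 0 called and a median of 0.18, with SEL1L at 0.58 (adjusted p = 0.506) and LIPA, the lysosomal lipase, at 0.51 (adjusted p = 0.674). Partners and substrates of the members had 13 of 22 tested, 0 called and a median of 0.16. Lowest in p there were LGMN, a lysosomal protease, at 1.12 (adjusted p = 0.0635) and CD37 at 0.96 (adjusted p = 0.162). At an unadjusted p under 0.05, 3 genes of the lysosomal list, 0 of lipid handling, 4 of the partners and 2 each of the resting and signalling lists passed, each with a positive value, beside 11.5% of all features in either direction. The shares of the resting (2 of 14) and signalling (2 of 19) lists were near that background.

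Last, the pattern of each member over the 48 sums of 8 classes in 6 libraries was set against 10499 features with a gene symbol and at least 100 UMIs, by Pearson's r of log2(CPM + 1). The sums share library and depth, and r is given as a description. Closest to GPNMB were SLC37A2, CARD8 and WDFY4 (r = 0.90 each). Closest to LAPTM5 were TLR4 (0.91), ABI3 and BNC2 (0.89 each), and closest to TYROBP were CD53 (0.89), INPP5D (0.88) and IL6ST (0.87). SPP1 was closest to KLK6 (0.79), SCD (0.71) and CD9 (0.70), and LPL to BRI3, RHOA (0.90 each) and NMI (0.89). Among the members, r was 0.72 to 0.78 between GPNMB, LAPTM5 and TYROBP, 0.01 to 0.08 between SPP1 and these 3, and 0.24 to 0.51 between LPL and these 3.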

How the data were processed

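Libraries of hippocampal nuclei (10x Genomics 3′ kit), 3 control and 3 ALP, were analysed, 1 per animal. The authors deposited raw counts (UMIs per feature and barcode). The methods name Cell Ranger 3.1.0, the matrix headers name version 6.1.2, and the TreeshrewDB genome build and the use of strand are not given in the sources used here. Nuclei with at least 200 and under 2500 genes and under 5% mitochondrial UMIs were kept, bounds taken as strict because they give the study's numbers of kept nuclei. Each nucleus was brought to 10000 UMIs on a log scale, and nuclei were clustered with scanpy 1.11.5 and leidenalg 0.10.2 (2000 variable genes without the members and list genes, 30 components, 20 neighbours, resolution 2). A cluster took a name from 3 or more markers present in at least 3% of nuclei at a fold of at least 1.5, and stayed unnamed with at least 15% marked doublets, with more markers of another class among the 10 leading genes, or, a rule set after seeing the data, when led by mitochondrial or haemoglobin genes. Scrublet scores marked 0.8% of nuclei per 1000 barcodes as doublets, which were kept.

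UMIs were summed per library and class (at least 10 nuclei) and compared by edgeR 4.0.16 (R 4.3.3), with DESeq2 1.42.0 as an alternative. CPM given in the text carry no TMM factors. Other comparisons used exact permutation tests with scipy 1.17.1. The edgeR fit was tested on simulated data. Libraries held 19182981 to 35898940 UMIs. p-values measure the spread between animals sampled once. Replicate numbers were not shown to pair libraries. Named genes were all members, their 3 most similar features, and from the lists the called genes or otherwise the 2 with the smallest p. As alternatives, a replicate block, DESeq2, no filter, upper-quartile scaling, libraries left out, no upper limit on genes, doublets out, list genes kept as variable, resolution 1, a marker gate, and nuclei with macrophage or myelin UMIs out were run. Added after seeing the data were the unnamed cluster, a term for Y-linked transcripts, equal cluster weights, a ratio to microglia markers, and tests of SPP1 between classes. The members and lists were chosen with earlier results of these data known.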

Additional observations from a re-analysis of the deposited data

Results flagged for a closer look

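TYROBP differed in opposite directions in 2 classes: every ALP library was above every control library in Micro-like nuclei (difference 0.90 in log2(CPM + 1)) and every one was below in Excitatory-like nuclei (excitatory neurons of no named subtype) (-0.34), from 34 UMIs there. The difference between the 2 effects was 1.24. The gene and classes were picked for these opposite directions, and the difference was not tested. All ALP libraries were below all controls for 14.5% of features with at least 10 UMIs in Excitatory-like nuclei, and at equal depth the share of those nuclei with TYROBP overlapped (0.550% in control and 0.540% in ALP).

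The 2413 nuclei of unnamed clusters entered no comparison by class, and in them all ALP libraries were above all control libraries for 2 of 5 members, as were 4.42% of features with at least 10 UMIs there. LAPTM5 averaged 9.46 ± 2.66 CPM in ALP against 3.41 ± 0.797 CPM in control, from 34 UMIs. TYROBP averaged 39.8 ± 16.1 CPM in ALP against 17.5 ± 2.44 CPM in control, from 153 UMIs (SD, n = 3 each). GPNMB overlapped there (11.1, 64.8 and 55.8 CPM in ALP against 0.648, 20.7 and 0 CPM in control). Of the unnamed nuclei, the 205 with microglia markers held 123 of the 134 GPNMB UMIs, 28 of the 34 LAPTM5 UMIs and 53 of the 153 TYROBP UMIs. A cluster of 387 nuclei led by haemoglobin genes held 50 more of the TYROBP UMIs.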

How the results depend on the processing

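Of 351 alternative values over 30 results, 280 kept their direction and their side of the threshold, or moved by less than the bound for a value or count. Among these are results tested by permutation of 3 against 3 libraries (smallest p 0.1) or sign flips over 3 libraries (smallest p 0.25). In the main setting their p could not fall below 0.05, so that for them keeping that side shows nothing. In Micro-like nuclei, GPNMB was not called without the upper limit on genes (2.48), with nuclei taken by marker UMIs (1.84) or without nuclei holding a myelin UMI (2.36), and LAPTM5 was not called under the first 2 of these (2.41 and 1.45). The number of members called was then 0, 0 and 1 in place of 2. Without the upper limit the class took in many much deeper nuclei. The 35 features called became 88 without a filter on low counts, 22 without marked doublets, 0 without the upper limit on genes, 0 with nuclei taken by marker UMIs and 9 without nuclei holding a myelin UMI, and DESeq2 called 27. In Oligo-like nuclei, SPP1 was not called with upper-quartile normalization (1.64), without marked doublets (1.66) or without the upper limit on genes (1.57), and in InN-like nuclei it was called without that limit (1.32). Over all nuclei, DESeq2 and the fit without a filter called GPNMB (2.15 and 2.22), LAPTM5 (1.16 and 1.20) and SPP1 (1.17 and 1.21), and LPL turned positive without the upper limit on genes (0.14). The cause of these changes was not tested.

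Leaving out 1 library gave log2 fold changes in Micro-like nuclei of 2.30 to 3.04 for GPNMB, 1.39 to 1.78 for LAPTM5 and 0.60 to 1.21 for TYROBP, 1 to 2 members called and 1 to 72 features called (lowest without Control 3, highest without Control 2, with 4 without ALP 1 and 7 without ALP 3). SPP1 spanned 1.10 to 2.31 in Oligo-like nuclei, 0.98 to 1.95 in Gran-like (it failed the filter without ALP 3) and 0.38 to 1.22 in InN-like nuclei. Over all nuclei GPNMB spanned 1.57 to 2.59 (called without Control 2, at 2.44), LAPTM5 1.04 to 1.30, SPP1 0.83 to 1.63, TYROBP 0.23 to 0.71 and LPL -0.60 to -0.14. The difference between Micro-like nuclei and the highest other class spanned 4.60 to 5.62 for LAPTM5, 2.36 to 2.85 for TYROBP, -2.66 to -1.69 for SPP1 and -3.73 to -3.04 for LPL, and 5 libraries cannot reach the threshold (exact p = 0.0625 at best). Between nuclei with and without GPNMB, the difference for LAPTM5 was 2.73 percentage points with all UMIs, 0.220 without marked doublets and -7.27 to 4.10 with 1 library left out, and for TYROBP 3.90 with all UMIs and -4.62 to 3.03 with 1 library left out, so that neither had a stable direction.

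With the replicate number as a block, GPNMB was at 2.39 (adjusted p = 0.00925), LAPTM5 at 1.68 (0.0410) and SPP1 in Oligo-like nuclei at 1.78 (0.0400), 11 features were called in Micro-like nuclei, and no call of a member changed. Same-numbered libraries did not deviate together: the correlations were -0.06, 0.02 and 0.03 in Micro-like nuclei, where 2 of 6 libraries correlated best with their own number. Among the alternatives added after seeing the data, a term for Y-linked transcripts gave 2.69 for GPNMB and 1.53 for LAPTM5, and adding the unnamed microglial cluster gave 2.35 and 1.35, with both members called each time. With 3 libraries a group, 36 Micro-like nuclei in Control 2, and 16 and 18 UMIs of LPL and SPP1 in all Micro-like nuclei, those 2 members failed the filter on low counts there, and without it neither was called (1.49 for SPP1 and 2.39 for LPL). Group and animal selection cannot be told apart from other traits of the 6 animals.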

Other observations

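The 9349 barcodes that passed the mitochondrial limit and the lower but not the upper limit on genes held 678 UMIs of GPNMB, 641 of TYROBP, 406 of SPP1, 154 of LPL and 111 of LAPTM5. Levels in their sums overlapped between the groups for each of the 5 members: GPNMB was at 5.76 ± 1.62 CPM in control and 9.53 ± 6.19 CPM in ALP, and LAPTM5 at 1.10 ± 0.373 and 1.17 ± 0.612 CPM (SD, n = 3 each). LPL-AS-1, antisense to LPL, held 6 of its 30 UMIs in Micro-like nuclei, 1 in control and 5 in ALP.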
